A study of Mus musculus with 6 samples.

Results

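Genes read in the spleens of BL/10 mice and hardly or not at all in those of NOD.B10 mice were examined. A gene was included if it had at least 10 raw counts in each of the 3 BL/10 libraries and at most 3 in each of the 3 NOD.B10 libraries. Of the 47729 genes in the table, 58 met these limits. Immunoglobulin, T cell receptor, Klr, Clec, H2 and Ly6 genes and Trim12a were left out by symbol, which removed 4 kappa variable genes, Igll1 and Trim12a. The remaining 52 genes were chosen by the counts described below, so their difference between the strains is a description and was not tested. With the strains exchanged, the same limits and families gave 79 genes read only in NOD.B10 spleens.

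Spleen RNA was sequenced from NOD.B10 (NOD.B10Sn-H2b/J) females, a strain that develops primary Sjögren's syndrome (pSS), and from BL/10 (C57BL/10) females, the healthy control strain, with 3 separate mice of each. NOD.B10 mice have the NOD background with the H2b haplotype that BL/10 mice also carry. The NOD.B10 mice and BL/10 replicate 1 were 26 weeks old and BL/10 replicates 2 and 3 were 36 weeks old by the labels, while the methods of the study give 26 weeks for the strains. Total counts were 16476126, 16257041 and 17160323 in NOD.B10 replicates 1, 2 and 3, and 18298451, 15662712 and 17935130 in BL/10 replicates 1, 2 and 3. Detection was taken to start above 3 counts, a floor equal to 0.164 to 0.192 CPM (counts scaled by the total of the library). The strain of each library follows its description and column name, since its title and strain field name the other strain, and every direction below is reversed under the titles.

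The tissue was checked against markers. None of the 8 B cell, 8 T cell and 8 red pulp macrophage genes on the lists was at or under the floor in all libraries of a strain, and of 8 spleen stroma genes, only Ccl21a was. B cell genes summed to between 2651 and 5084 CPM, and erythroid genes to between 25768 and 56804 CPM. T cell genes, led by Cd4, summed to between 695 and 937 CPM in NOD.B10 and between 319 and 422 CPM in BL/10. The 8 neutrophil genes, led by S100a9, summed to between 2189 and 2438 CPM in NOD.B10 and between 6114 and 12114 CPM in BL/10. Spleen stroma genes, led by Mfge8, summed to between 856 and 994 CPM in NOD.B10 and between 629 and 809 CPM in BL/10. The labelled tissue therefore carried its markers in both strains, but the T cell, neutrophil and stroma sums did not overlap between them, and their part in the results below was not tested. Single genes did not all follow the sums. Cd8a of the T cell list and Nkx2-5 and Tlx1 of the stroma list overlapped between the strains. Pdpn, also of the stroma list, was between 1.11 and 2.10 CPM in NOD.B10 and between 1.53 and 4.18 CPM in BL/10.

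The 52 genes fell into classes by how they were read among the BL/10 libraries, measured in CPM. Falling steeply means that BL/10 replicate 1 was above replicate 2, replicate 2 was above replicate 3, and replicate 1 was at least 4 times replicate 3. Reg1, Rnase1, Cela3b, Ctrc and Try4 met this definition. The highest BL/10 library was under 4 times the lowest for 46 genes, called evenly read here. Hcrtr2, the receptor for the wakefulness peptide orexin, met neither definition. The 5 steep genes summed to 33373, 3977 and 104 counts in the BL/10 libraries, and the 46 evenly read genes to 2457, 1730 and 2070. As the classes were defined by this spread, the sums describe them and are not a finding.

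All 5 steep genes encode secreted proteins of pancreatic acinar cells. These cells store digestive enzymes as inactive precursors in granules and release them into the gut, where trypsin activates the other proteases. The tail of the pancreas lies against the spleen in the mouse.

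Reg1, a lectin-like protein of pancreatic juice, had 12010, 971 and 15 counts in BL/10 replicates 1, 2 and 3 and 1, 2 and 3 counts in the NOD.B10 replicates. Rnase1, the pancreatic ribonuclease, had 7812, 933 and 32 counts in BL/10 and 3, 2 and 3 in NOD.B10. The BL/10 replicates of both genes spanned more than 2 orders of magnitude. Cela3b, an elastase, was read 6793, 783 and 25 times in BL/10 spleens and 2, 1 and 2 times in NOD.B10 spleens. Ctrc, or chymotrypsin C, which helps to activate and degrade trypsinogen, was read 3781, 651 and 22 times in BL/10 spleens and 3 times in each NOD.B10 spleen. Try4, a trypsinogen, was read 2977, 639 and 10 times in BL/10 and 0, 1 and 0 times in NOD.B10. The order of the BL/10 libraries was set by the definition, and replicate 1 was between 168 and 785 times replicate 3 in CPM, where the definition asks for 4. Replicate 1 was the only BL/10 mouse with an age of 26 weeks in the labels, and age and replicate cannot be told apart here.

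Pooled over the 3 libraries of a strain and divided by the totals, the ratio of BL/10 to NOD.B10 was 2082 for Reg1 (95% exact counting interval 956 to 5675). It was 476 for Ctrc (250 to 1041), the smallest ratio of the 5. These intervals and the floor cover counting error only, and the pooled BL/10 counts came mostly from replicate 1. In CPM per kilobase of exon, the mean BL/10 level was 265 for Reg1, 168 for Rnase1, 84.9 for Try4, 84.6 for Cela3b and 58.2 for Ctrc. These means hide the spread, since the SD over the 3 libraries was larger than the mean for every steep gene (for Reg1, 240 ± 362 CPM).

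**Figure D1:**
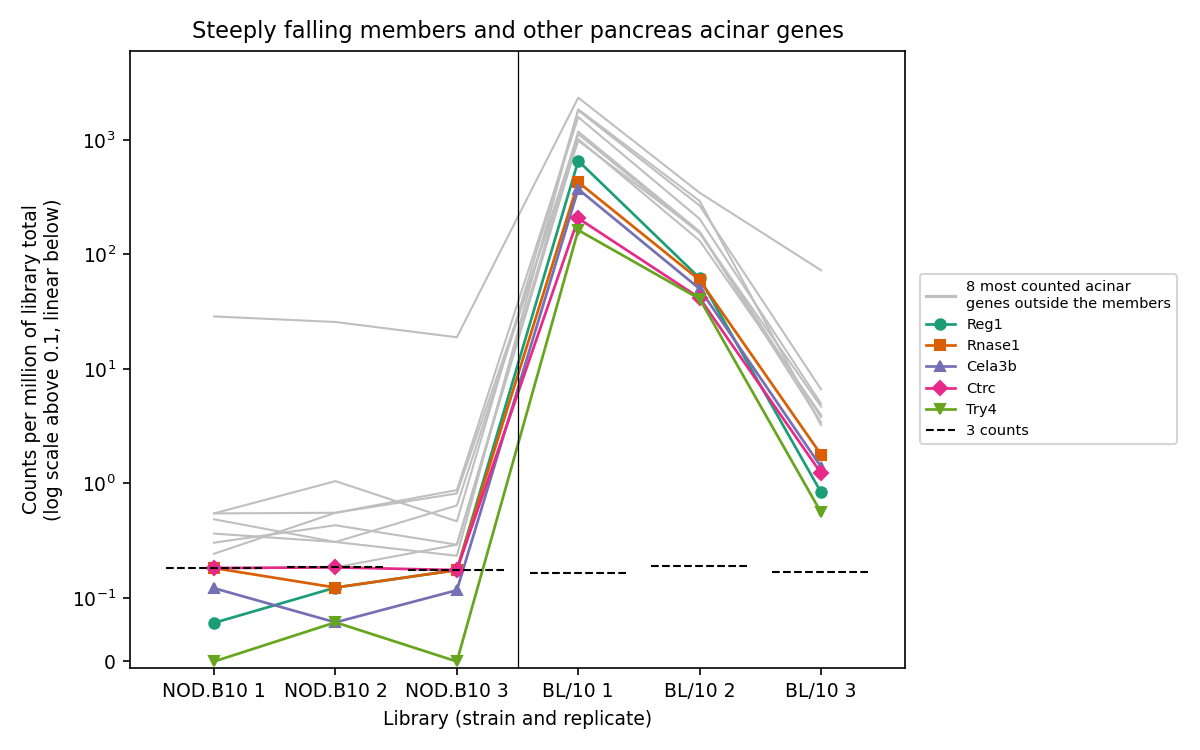
CPM (log scale above 0.1, linear below) in the 6 spleen libraries, for the 5 steeply falling genes (colored points) and the 8 acinar genes with the most counts among those outside the 52 (gray lines); lines join the values of a gene, and dashes mark 3 counts. Every gene shown is highest in BL/10 replicate 1 and lower in replicate 2 and again in replicate 3, and the gray line that stays above the others is Cela1.

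The other acinar genes show whether the steep genes stand alone. Of 43 acinar genes on 4 lists (proteases, lipases with amylases and nucleases, granule and secretory proteins, and regulators), 6 are among the 52 and 37 are not. Over all 43, 38 genes had the steep order, 33 of them outside the 52. The 43 genes summed to 318718, 38906 and 2449 counts in the BL/10 replicates, which is 1.74%, 0.248% and 0.0137% of the totals, and to 1423, 1274 and 1408 counts in the NOD.B10 replicates. The steep genes are thus a small portion of the acinar reads in BL/10 replicate 1.

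The genes outside the 52 were tested in a fit over all genes. Their lower reading in NOD.B10 was known when the lists were written, so the calls are not independent evidence. Of the 19 that passed the filter on low counts, 14 were called lower in NOD.B10 and 0 higher by edgeR's quasi-likelihood test at an adjusted p under 0.05, which called 8.22% of all tested genes lower and 9.11% higher. Only 1 of the 14, Cela1, had at least 10 counts in every NOD.B10 library. The others passed the filter through their BL/10 counts and had to differ, so their number is not support. With at least 10 counts required in every library, 1 of 4 was called. At an unadjusted p under 0.05, 15 of the 19 were lower, and DESeq2 also called 14 lower and 0 higher. The calls were lost when a NOD.B10 library was left out. Without NOD.B10 replicate 1, 0 of 29 tested genes were called (23 lower at an unadjusted p under 0.05), without replicate 2 only 1 was, and without replicate 3 again 0 were (24 at an unadjusted p under 0.05). In these fits 3.77%, 6% and 4.06% of all genes were called lower. Without BL/10 replicate 3, 25 of 29 were called lower, against 5.32% of all genes in that fit. Without BL/10 replicate 1, 14 of 19 were called lower and 1 higher, against 14% and 12.3% of all genes.

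Cpb1, a carboxypeptidase that trims basic residues from peptides, had 33853, 4578 and 58 counts in BL/10 and 6, 5 and 4 in NOD.B10. Ctrb1, the main chymotrypsinogen, had 33087, 4176 and 119 counts in BL/10 and 9, 17 and 8 in NOD.B10. Both followed the steep order and stayed outside the 52 because a NOD.B10 library exceeded 3 counts. Pnlip, the lipase that digests dietary fat, had 28908, 3197 and 89 counts in BL/10 and 4, 9 and 15 in NOD.B10. Cel, a bile salt-dependent lipase, had 21617, 2476 and 68 counts in BL/10 and 5, 7 and 5 in NOD.B10. Cela1, an elastase, was the most abundant of the list with 42720, 5407 and 1303 counts in BL/10 and 473, 417 and 324 in NOD.B10. Its log2 fold change, NOD.B10 over BL/10, was -5.26 ± 1.16 (SE; adjusted p = 0.0209). Cela1 was thus read far above the floor in NOD.B10 spleens too. Cpa1, Cela2a and Prss2, the remaining genes among the 8 most counted outside the 52, had the same order, with 20545, 18573 and 17995 counts in BL/10 replicate 1 and 84, 71 and 61 in replicate 3.

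A further 13 acinar genes had at most 3 counts in every NOD.B10 library but missed the limit of 10 in BL/10 replicate 3. Sycn, a protein of the granule membrane, was read 4912, 457 and 6 times in BL/10 and 2, 0 and 1 times in NOD.B10. Try5, the trypsinogen that shares the most sequence with Try4, was read 3176, 842 and 7 times in BL/10 and 0, 2 and 0 times in NOD.B10. Both were kept out by BL/10 replicate 3 alone. Gp2 and Klk1 also had the steep order but were read in NOD.B10 spleens at 18.8 to 26.9 CPM and 14.2 to 17.7 CPM, and neither was called (adjusted p = 0.435 and 0.275). Among the regulators, Ptf1a, the factor that drives acinar identity, had 7, 0 and 0 counts in BL/10 and 0 in each NOD.B10 library, and Bhlha15, which plasma cells also use, was between 6.45 and 11.5 CPM in all 6 libraries. Rbpjl, another regulator, had the steep order with 44, 6 and 3 counts in BL/10. It had 15, 16 and 34 counts in NOD.B10, above BL/10 replicates 2 and 3, and was not called (adjusted p = 0.804).

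Summed markers of neighboring tissues did not follow the same order. All 7 islet hormone genes on the list, among them Ins1, Ins2 and Gcg, were at or under 3 counts in every library, and they summed to 4, 1 and 2 counts in the BL/10 replicates. The 10 adipocyte genes, led by Fabp4, summed to 34.2, 73.2 and 285 CPM in BL/10 replicates 1, 2 and 3 and to 71.8, 58.1 and 73.7 CPM in NOD.B10. The 6 mesothelium genes, led by Upk3b, summed to 51.9, 28.2 and 102 CPM in BL/10, and the 6 duct genes, led by Krt19, to 11.2, 6.07 and 15.4 CPM. The adipocyte, mesothelium and duct sums were highest in BL/10 replicate 3, the BL/10 library with the fewest acinar reads. Within them, genes such as Krt8, Krt18 and Muc1 were highest in BL/10 replicate 1, and Muc1 had the steep order (3.22, 0.383 and 0.223 CPM). How the spleens were dissected is not given in the sources used here, and the part of attached tissue in the steep genes was not tested. In bulk RNA, fewer cells of a type and less RNA per cell cannot be told apart.

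The promoters of the steep genes are shown because all 5 are acinar genes. RefSeq promoters on build GRCm38.p6 were found for 4 of the 5 (Ctrc is named only). Acinar genes are commonly driven by the PTF1 complex, in which Ptf1a binds an E-box and Rbpjl a nearby site. The 250 bases before each start were searched on both strands for the E-box CANNTG, for TTCCCA, a core of the Rbpj-type site, and for TATAAA, the TATA box. Capitals mark each match, and adjacent matches may run together. Cela3b lies on the minus strand at chr4:137430521-137430770, Reg1 on the plus strand at chr6:78425733-78425982, Rnase1 on the minus strand at chr14:51146768-51147017 and Try4 on the plus strand at chr6:41302022-41302271.
Cela3b: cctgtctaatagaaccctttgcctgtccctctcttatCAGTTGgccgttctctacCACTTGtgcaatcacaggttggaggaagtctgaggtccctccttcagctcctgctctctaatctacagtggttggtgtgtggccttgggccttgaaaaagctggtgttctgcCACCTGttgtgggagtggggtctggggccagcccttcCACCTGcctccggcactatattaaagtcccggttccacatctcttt
Reg1: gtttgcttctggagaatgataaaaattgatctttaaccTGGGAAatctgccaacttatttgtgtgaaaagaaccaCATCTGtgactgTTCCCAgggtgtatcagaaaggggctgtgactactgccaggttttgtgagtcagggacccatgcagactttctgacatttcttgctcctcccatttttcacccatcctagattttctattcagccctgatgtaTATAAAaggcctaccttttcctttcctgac
Rnase1: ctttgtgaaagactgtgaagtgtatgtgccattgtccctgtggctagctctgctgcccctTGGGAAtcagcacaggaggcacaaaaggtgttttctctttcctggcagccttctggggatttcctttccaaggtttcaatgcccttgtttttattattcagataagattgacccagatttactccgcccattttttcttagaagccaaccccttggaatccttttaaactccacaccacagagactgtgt
Try4: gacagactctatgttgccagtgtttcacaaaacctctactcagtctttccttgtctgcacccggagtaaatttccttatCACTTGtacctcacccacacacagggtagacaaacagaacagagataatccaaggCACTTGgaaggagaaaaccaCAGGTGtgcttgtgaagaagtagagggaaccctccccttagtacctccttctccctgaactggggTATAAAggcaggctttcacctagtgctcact
Of the 32851 promoters in the RefSeq table, 66.2% held CANNTG, 21.6% held TTCCCA and 12.4% held TATAAA within these 250 bases. Of the 34 promoters of acinar-list genes, 29 held CANNTG, 19 held TTCCCA and 13 held TATAAA. Cela3b had 4 matches to CANNTG and 0 to the other motifs, and Rnase1 had 1 match to TTCCCA alone. Reg1 had a match to every motif, and its TATAAA began 30 bases before the start. Try4 had 3 matches to CANNTG and a TATAAA 31 bases before the start. The 4 promoters thus did not hold the same set of motifs, and a match is a description of the letters, not of binding.

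The 46 evenly read genes were of another kind. Together with Hcrtr2, 28 of the 47 are protein coding, and 19 are noncoding RNAs or pseudogenes. Over all 52, the steep genes included, 63.5% are protein coding, whereas 89.0% of the 15330 genes tested are. The tested genes were not matched to the 52 by count, and the difference was not tested. Of the acinar-list genes, only Pdia2, a disulfide isomerase that helps acinar proteins to fold, is evenly read. It had 36, 10 and 10 counts in BL/10 and 0, 0 and 1 in NOD.B10, and it would be classed as steep if the ratio of replicate 1 to replicate 3 had to reach 3 in place of 4. Most of its exons (92.4% of 1721 bases) overlap Arhgdig, and reads on both genes were not counted under the settings used.

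Counts of the evenly read genes were low. Of the 52 genes, 28 had fewer than 20 counts in their lowest BL/10 library and 8 had at least 50. Of the evenly read genes, 8 were at 0 in all 3 NOD.B10 libraries. In CPM per kilobase of exon, the mean BL/10 level of the evenly read genes ran from 0.127 for Rgs17 to 11.8 for Gm12901. In the fit over all genes, in which 17.3% of genes were called in either direction, 46 of the 52 passed the filter and all 46 were called lower in NOD.B10. The selection itself required this, and nothing is read from it. Try4, Styk1, Hist1h2ac, Pdia2 and Sfrp5 were among the 6 that did not pass.

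**Figure D2:**
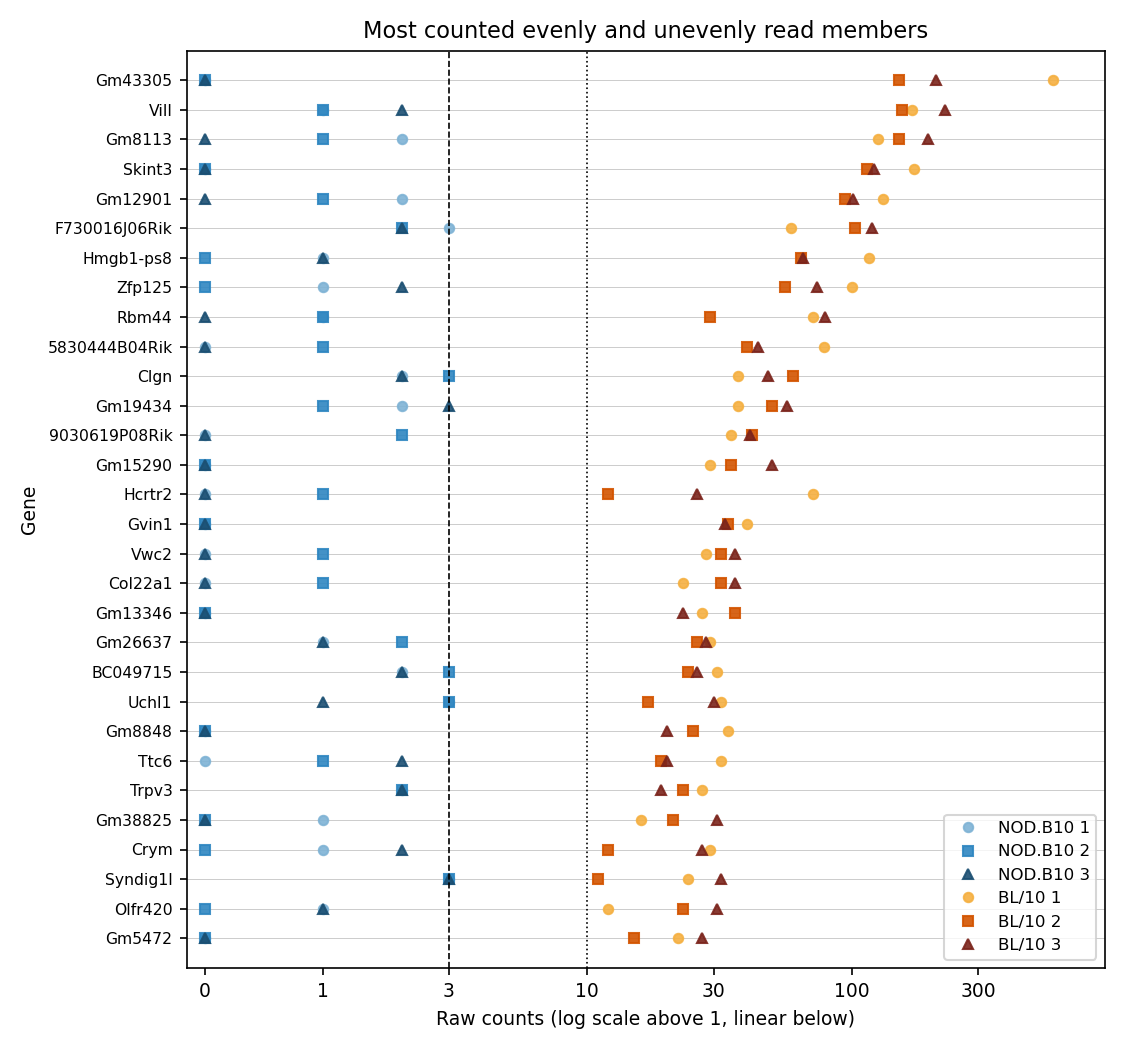
Raw counts (log scale above 1, linear below) in the 6 libraries for the 30 genes with the most BL/10 counts among the 46 evenly read genes and Hcrtr2, ordered by their sum in BL/10, with dashed and dotted lines at the limits of 3 and 10 counts that chose them. Points with the same count lie on top of each other, and Gm43305 at the top reaches 575 counts in BL/10 replicate 1 and 0 in every NOD.B10 library.

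The most counted of the evenly read genes included 3 protein-coding genes. Vill, a villin-like protein of the family that binds and severs actin filaments, had 169, 155 and 225 counts in BL/10 and 1, 1 and 2 in NOD.B10. It was read in every BL/10 spleen at 9.24 to 12.5 CPM, and the pooled ratio was 132 (95% counting interval 51.2 to 486). Gm8113, a predicted protein on chromosome 14, had 125, 151 and 193 counts in BL/10 and 2, 1 and 0 in NOD.B10. Skint3 had 172, 114 and 121 counts in BL/10 and 0 in each NOD.B10 library, at least 43.3-fold higher against the floor of 3 counts per library. Skint proteins are membrane proteins of the immunoglobulin superfamily, and Skint1, the family's founder, is needed to select a subset of gamma delta T cells for the skin. Skint3 stood alone in its family, since 9 of the 11 Skint genes in the table, Skint1 among them, had 0 counts in every library. Skint10, the remaining gene, had 5, 2 and 1 counts in BL/10 and 1, 2 and 0 in NOD.B10.

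Several evenly read genes encode receptors, channels and signaling proteins. Gvin1 encodes a very large GTPase that interferon induces, and had 40, 34 and 33 counts in BL/10 and 0 in each NOD.B10 library (at least 11.4-fold higher). Its BL/10 libraries were among the most alike, with the highest 1.19 times the lowest in CPM. Styk1, a membrane kinase, had 10, 16 and 13 counts in BL/10 and 0 in each NOD.B10 library, at least 4.23-fold higher. Trpv3, a cation channel of keratinocytes that opens with warmth, had 27, 23 and 19 counts in BL/10 and 2 in each NOD.B10 library. Olfr420, an odorant receptor, had 12, 23 and 31 counts in BL/10 and 1, 0 and 1 in NOD.B10. Rgs17, which shortens G protein signals, had 26, 15 and 14 counts in BL/10 and 3, 2 and 3 in NOD.B10. For Rgs17 and Trpv3 the NOD.B10 counts were nearer to the limit, and the pooled ratios were 6.61 (3.13 to 16.1) and 11.1 (4.83 to 31.2). Hcrtr2, the unevenly read receptor, had 71, 12 and 26 counts in BL/10 and 0, 1 and 0 in NOD.B10, a ratio of 105 (18.4 to 4177).

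Enzymes formed another group. B4galnt2, which adds the terminal sugar of the Sda blood group antigen, had 23, 17 and 13 counts in BL/10 and 0, 0 and 3 in NOD.B10. Uchl1, a ubiquitin hydrolase abundant in neurons, had 32, 17 and 30 counts in BL/10 and 3, 3 and 1 in NOD.B10. Crym, which binds thyroid hormone in the cytosol, had 29, 12 and 27 counts in BL/10 and 1, 0 and 2 in NOD.B10. Uchl1 and Crym were both lowest in BL/10 replicate 2, also in CPM (1.75, 1.09 and 1.67 for Uchl1, and 1.58, 0.766 and 1.51 for Crym). The sulfotransferases Chst8 and Sult6b1, the wax alcohol acyltransferase Awat1 and the mitochondrial phospholipase Pld6 had between 10 and 23 counts in each BL/10 library. Of these, Pld6 had the smallest pooled ratio of all 52 genes, 3.85 (1.74 to 9.66), from 11, 10 and 11 counts in BL/10 against 3, 3 and 2 in NOD.B10.

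Some evenly read genes encode secreted proteins. Vwc2, an extracellular antagonist of bone morphogenetic proteins, had 28, 32 and 36 counts in BL/10 and 0, 1 and 0 in NOD.B10. Col22a1, a collagen found at tissue junctions, had 23, 32 and 36 counts in BL/10 and 0, 1 and 0 in NOD.B10. Their counts were nearly the same in every library, although they lie on chromosomes 11 and 15. Sfrp5, a secreted protein that binds Wnt ligands, had 12, 11 and 10 counts in BL/10 and 0, 2 and 0 in NOD.B10, close to the lower limit.

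Further protein-coding genes are best known from germ cells, brain or the nucleus. Clgn, or calmegin, a chaperone of the endoplasmic reticulum needed in sperm development, had 37, 60 and 48 counts in BL/10 and 2, 3 and 2 in NOD.B10. Rbm44, an RNA-binding protein of germ cell bridges, had 71, 29 and 79 counts in BL/10 and 1, 1 and 0 in NOD.B10. Both were several times above the limit in every BL/10 spleen, with pooled ratios of 19.9 (9.42 to 50.4) for Clgn and 86.0 (23.5 to 716) for Rbm44. Syndig1l, a brain membrane protein, had 24, 11 and 32 counts in BL/10 and 3 in each NOD.B10 library, the highest NOD.B10 count the rule allows. Ttc6, a tetratricopeptide repeat protein, had 32, 19 and 20 counts in BL/10 and 0, 1 and 2 in NOD.B10. BC049715 had 31, 24 and 26 counts in BL/10 and 2, 3 and 2 in NOD.B10. The histone genes Hist1h2ac and Hist1h2bb, whose messages mostly lack a poly(A) tail, had between 10 and 19 counts in each BL/10 library and between 1 and 3 in each NOD.B10 library.

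Noncoding RNAs and pseudogenes included the most counted evenly read gene. Gm43305, a processed transcript on chromosome 14, had 575, 151 and 207 counts in BL/10 and 0 in each NOD.B10 library, at least 97.2-fold higher. BL/10 replicate 1 stood above the others, and the gene would be uneven if the ratio of highest to lowest had to stay under 3. F730016J06Rik, a long intergenic RNA, had 59, 103 and 119 counts in BL/10 and 3, 2 and 2 in NOD.B10. Gm15290, also intergenic, had 29, 35 and 50 counts in BL/10 and 0 in each NOD.B10 library (at least 12.2-fold higher). Gm13346 had 27, 36 and 23 counts in BL/10 and 0 in each NOD.B10 library (at least 9.34-fold higher). These intergenic RNAs were read in every BL/10 spleen without a common order of replicates. The other intergenic RNAs, Gm26637, C920006O11Rik and Platr27, had between 13 and 31 counts in each BL/10 library. The antisense RNAs Gm19434, Gm38825 and Gm15972 had between 11 and 57 and share 0 exon bases with another gene. As strand was not used in counting, reads from introns of a gene that overlaps them cannot be told apart from theirs.

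Among pseudogenes, which are copies of genes that have usually lost the ability to make the protein, Gm12901 was read most, with 131, 94 and 101 counts in BL/10 and 2, 1 and 0 in NOD.B10. In CPM per kilobase of exon, its BL/10 mean of 11.8 was the highest of the evenly read genes. Hmgb1-ps8, a processed copy of the message for the nuclear alarm protein HMGB1, had 116, 64 and 65 counts in BL/10 and 1, 0 and 1 in NOD.B10. Zfp125, annotated as a transcribed zinc finger pseudogene, had 100, 56 and 74 counts in BL/10 and 1, 0 and 2 in NOD.B10. Gm8848 (34, 25 and 20 counts in BL/10) and Gm5472 (22, 15 and 27) were at 0 in each NOD.B10 library, at least 8.44-fold and 6.77-fold higher in BL/10. Gm12020 and the transcribed pseudogene 9030619P08Rik had at most 2 counts in each NOD.B10 library. The processed transcripts 5830444B04Rik and Gm6209 had 78, 40 and 44 counts and 11 counts in each BL/10 library, respectively.

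Copies matter because reads that map to several places are not counted under the settings used. The transcripts of each gene in GENCODE M21 were therefore cut into all stretches of 50 bases, the read length, and compared with those of every other gene. At least 10% of the stretches lay in another gene for 17 of the 52 genes (32.7%), compared with 19.7% of 15273 tested genes. The median share was 2.22% for the 52 and 0.61% for tested genes. For 17 of the 52 genes, Vill, Clgn and Rbm44 among them, 0 stretches were shared. The difference in share was not tested.

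Gvin1 was the extreme, with 99.2% of its 9005 stretches in another gene and 8855 of them in Gm4070, a related gene nearby. Gm4070 itself had 66, 62 and 56 counts in BL/10 and 77, 46 and 73 in NOD.B10, and it was not called (adjusted p = 0.827). The count of Gvin1 thus rested on few stretches of its own and is uncertain. For Try4, 65.6% of the stretches were shared, most often with Try5, and its counts are uncertain in the same way. Hmgb1-ps8 shared 21.8%, mostly with Hmgb1, which had 1059, 1097 and 903 counts in BL/10 and 784, 891 and 863 in NOD.B10 and was not called (adjusted p = 0.201). Gm5472 shared 13.3%, mostly with Pes1, a gene of ribosome assembly that was called higher in NOD.B10 (log2 fold change 0.79 ± 0.08, adjusted p = 0.000878). Both partner genes were thus read in both strains where the pseudogene was read in BL/10 alone.

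The 52 genes were spread over 19 chromosomes, with 7 on chromosome 6. The H2 interval of chromosome 17, taken as the span of the H2 genes from 33974831 to 37483552, holds 321 genes of the table, and 0 of the 52 lie in it. Within 1 Mb of each other lay only the histone genes Hist1h2ac and Hist1h2bb, 62.9 kb apart, and Sult6b1 and Gm26637, which overlap. Reading in BL/10 alone was therefore mostly a matter of separate loci.

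Whether genes around these loci also differ was asked with tested genes within 500 kb of an evenly read gene or Hcrtr2, none of which is among the 52. Of 501 such neighbors, 113 were called (22.6%), compared with 17.3% of all tested genes. The calls went both ways, with 59 lower in NOD.B10 (11.8% against 8.22%) and 54 higher (10.8% against 9.11%). The median log2 fold change of the neighbors was -0.03, compared with 0.00 over all tested genes. With at least 10 counts required in every library, 52 of 445 neighbors were called lower (11.7% against 7.3% of all genes in that fit). In that fit 33 were called higher, which was no more than among all genes (7.42% against 7.52%). With the gene families of the selection rule left out, 87 of 449 were called (19.4%), and around genes with at least 20 counts in every BL/10 library, 78 of 261 were (29.9%). Both restrictions were chosen after the data were seen. Without NOD.B10 replicate 1, 67 of 512 neighbors were called (13.1%, against 8.12% of all genes in that fit), and without NOD.B10 replicate 3, 75 of 509 (14.7% against 8.95%). Without BL/10 replicate 1, 149 of 508 were called (29.3% against 26.3%), which was nearer to the share of all genes. Of the 47 genes, 44 had a tested neighbor and 34 had a called one. No such count around other genes is given here, so nothing is read from it.

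Of 13 tested neighbors of Gvin1, 4 were called higher in NOD.B10 and 2 lower, against 9.11% and 8.22% of all tested genes. The lower ones were Rrp8 (log2 fold change -0.66 ± 0.09, adjusted p = 0.00338) and Tpp1 (-0.51 ± 0.08, adjusted p = 0.00703), and the higher ones share sequence with Gvin1. Gm8989, an unprocessed pseudogene 108 kb away that shares 1741 stretches with Gvin1, was read 92, 96 and 125 times in NOD.B10 libraries against 2, 0 and 1 times in BL/10 libraries, a ratio of 109 (36.8 to 529; adjusted p = 8.64e-05). Gm8979, 72.5 kb away with 1978 shared stretches, was read 119, 79 and 105 times in NOD.B10 libraries against 5 times in each BL/10 library (log2 fold change 4.30 ± 0.27, adjusted p = 8.85e-05). 9130208D14Rik, 325 kb away with 1476 shared stretches, was read 183, 204 and 205 times in NOD.B10 libraries against 6, 10 and 6 times in BL/10 libraries (4.72 ± 0.25, adjusted p = 4.54e-05). These 3 copies were read where Gvin1 was not. They passed the filter on low counts only through their NOD.B10 libraries, so their calls are not support. Gm4759, a copy named after its values were seen, was read in both strains and higher in NOD.B10, with 4062, 3559 and 5043 counts against 881, 423 and 568 (2.78 ± 0.21, adjusted p = 0.000199). Gm8995 and Gm1966, the copies with the next most shared stretches, had at least 1904 counts in every library and were not called. The GTPase cluster of chromosome 7 thus held a copy read in BL/10 alone, copies read mostly in NOD.B10 and copies read in both, and because the copies share sequence, how the reads were split among them is uncertain.

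**Figure D3:**
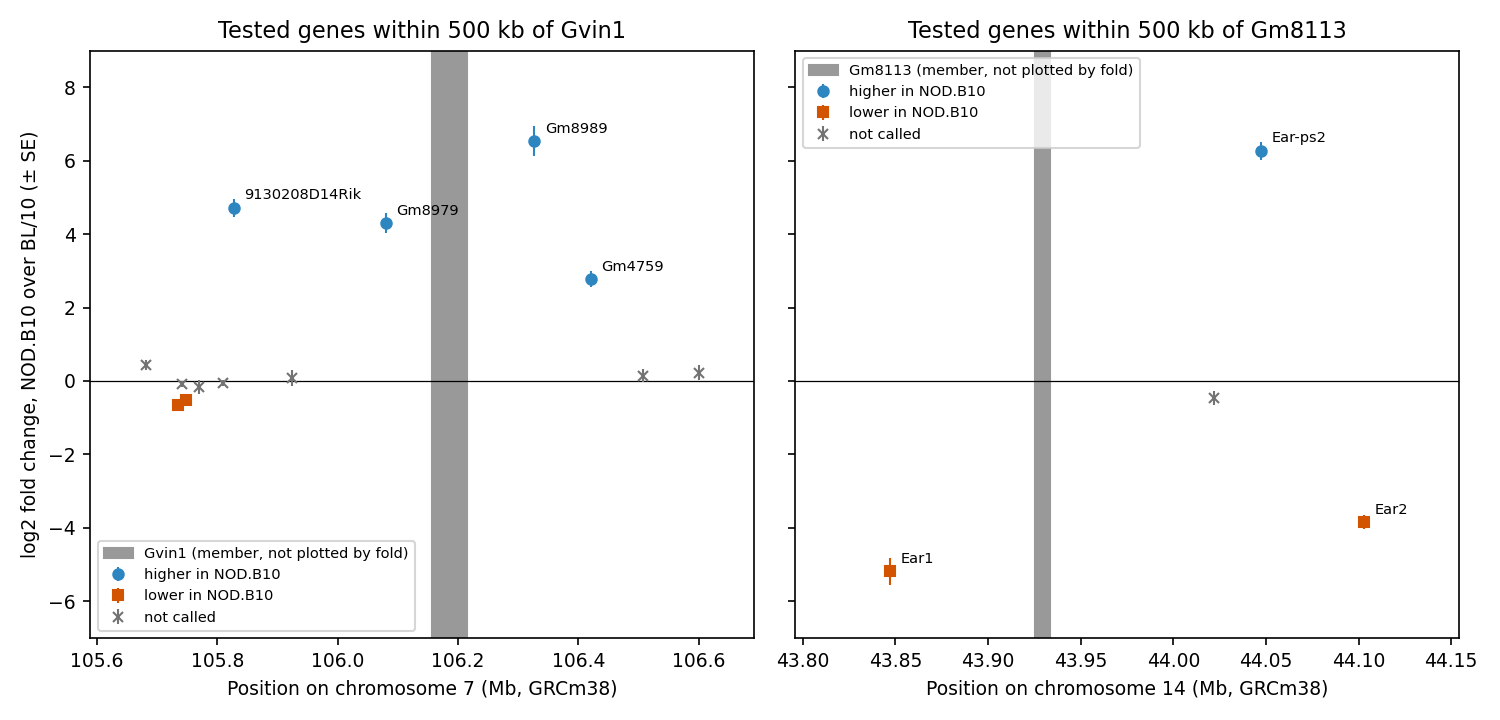
Log2 fold change (NOD.B10 over BL/10, with its SE) of tested genes within 500 kb of Gvin1 on chromosome 7 (left) and of Gm8113 on chromosome 14 (right), placed by the middle of the gene; circles were called higher and squares lower in NOD.B10, crosses were not called, and gray bands mark Gvin1 and Gm8113. Around Gvin1, 4 genes of its family were called higher, and around Gm8113, Ear-ps2 was called higher and Ear1 and Ear2 lower; the fitted values of Gm8989 and Ear-ps2 depend on the small number added to low counts.

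Gm8113 lies among the Ear genes, which encode ribonucleases of eosinophils and related cells. Ear2, 169 kb away, had 1367, 1723 and 1570 counts in BL/10 and 91, 112 and 126 in NOD.B10 (log2 fold change -3.84 ± 0.20, adjusted p = 3.90e-05). Ear1, 49.9 kb away and named after its values were seen, had 673, 1170 and 844 counts in BL/10 and 20, 34 and 21 in NOD.B10 (-5.19 ± 0.37, adjusted p = 0.00015). Ear-ps2, a pseudogene 114 kb away, went the other way and was read 166, 198 and 207 times in NOD.B10 libraries against 2, 2 and 3 times in BL/10 libraries, a ratio of 84.8 (40.9 to 212; adjusted p = 9.76e-06). Of 14 genes and pseudogenes named Ear in the table, 8 had at most 3 counts in every library. Ear6, farther along the chromosome, had 1418, 2384 and 1913 counts in BL/10 and 83, 111 and 79 in NOD.B10. Ear-ps9 had 9, 8 and 9 counts in BL/10 and 0 in each NOD.B10 library, and Ear10 had at most 6 in any library. As with Gvin1, genes near each other and of a family differed in both directions. Among the Ear genes, only Ear-ps2 was read far more often in NOD.B10.

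The immunoglobulin kappa region around the pseudogene Gm8848 held 20 called genes of 44 tested, 13 higher and 7 lower in NOD.B10. Over all tested genes 17.3% were called, 9.11% higher and 8.22% lower, and the difference was not tested. Some of the 20 had to differ. Igkv1-35 (0, 1 and 0 counts in BL/10) and Igkv5-40-1 (0 in each BL/10 library), among others, passed the filter only through NOD.B10. Igkv8-27 had 490, 456 and 551 counts in BL/10 and 6, 4 and 4 in NOD.B10 (log2 fold change -6.70 ± 0.19, adjusted p = 2.94e-06). Igkv8-30 had 716, 616 and 883 counts in BL/10 and 46, 30 and 55 in NOD.B10 (-4.08 ± 0.20, adjusted p = 3.00e-05). These are variable gene segments, of the kind the selection rule leaves out, and Gm8848 was read evenly beside them. Near Gm19434, Apold1, a gene of the vessel lining, had 157, 143 and 172 counts in BL/10 and 24, 24 and 26 in NOD.B10 (-2.67 ± 0.16, adjusted p = 6.70e-05). Near Olfr420, Ifi202b, a DNA-binding gene of the interferon response, was read 838, 624 and 485 times in NOD.B10 libraries against 2, 0 and 0 times in BL/10 libraries, a ratio of 1013 (280 to 8367; adjusted p = 4.54e-05). Near Sult6b1 and Gm26637, Gm10093 was read 68, 60 and 81 times in NOD.B10 libraries against 4, 2 and 3 times in BL/10 libraries (4.48 ± 0.27, adjusted p = 7.86e-05). The neighbors with the smallest p thus included genes on either side. They were named for a small p, so the size of their folds is not a finding. Ifi202b, Gm10093, Ear-ps2 and the Gvin1 copies Gm8989, Gm8979 and 9130208D14Rik passed the filter on low counts only through their NOD.B10 libraries. Igkv8-27 passed only through its BL/10 libraries. These genes had to differ, and their p-values are not support.

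Genes that overlap a member share its position, and their reads may be hard to assign. Of 8 tested genes whose body overlaps that of an evenly read gene, 3 were called lower in NOD.B10 and 1 higher. Over all tested genes 8.22% were called lower and 9.11% higher, and the difference was not tested. Eif2ak2, the interferon-induced kinase PKR that stops translation on double-stranded RNA, overlaps Gm26637 and had 1114, 1331 and 1214 counts in BL/10 and 583, 518 and 550 in NOD.B10 (log2 fold change -1.16 ± 0.15, adjusted p = 0.00214). Arhgdig, which overlaps Pdia2, had 59, 22 and 15 counts in BL/10 and 2, 6 and 5 in NOD.B10 (-2.83 ± 0.63, adjusted p = 0.0209), and it shared the order of BL/10 replicates with Pdia2. Hmgb1-ps8 lies within the bodies of H60b and Gm26740. H60b, a ligand of the activating receptor NKG2D, was higher in NOD.B10 with 40, 36 and 34 counts against 5, 2 and 2 (3.57 ± 0.34, adjusted p = 0.000567). Gm26740 was lower, with 247, 126 and 164 counts in BL/10 and 61, 67 and 59 in NOD.B10 (-1.50 ± 0.21, adjusted p = 0.00344). Arhgdig passed the filter on low counts only through its BL/10 libraries, and H60b only through its NOD.B10 libraries. Both had to differ, so their calls and p-values are not support. Hebp1, Wbp11 and Serbp1 overlap Gm19434, BC049715 and Gm38825, had at least 1509 counts in every library, and were not called (adjusted p between 0.296 and 0.743). Cfap74, which overlaps 5830444B04Rik, was not called either (adjusted p = 0.122). A member could thus be read in BL/10 alone where a gene overlapping it was read in both strains and was not called.

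The limits cut through a continuum of low counts. Just inside, Awat1 and Hist1h2ac, among others, had 10 counts in their lowest BL/10 library and 3 in their highest NOD.B10 library. Among the 52, 8 had 10 as their lowest BL/10 count and 20 had 3 as their highest NOD.B10 count. Just outside, 17 genes had 8 or 9 as their lowest BL/10 count, among them the bile transporter Abcc2 (8, 14 and 9 in BL/10 and 1, 0 and 0 in NOD.B10), Alox12e (9, 10 and 10 against 1, 0 and 1), Cnnm1 and Crocc2. A further 41 had a highest NOD.B10 count of 4 or 5. Among these, 2210010C04Rik, a trypsinogen-like gene, had 17355, 1955 and 57 counts in BL/10 and 3, 0 and 4 in NOD.B10, in the order of the steep genes. Another, 2900097C17Rik, had 56, 61 and 75 counts in BL/10 and 2, 5 and 2 in NOD.B10. Genes on either side of the limits had like counts.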

How the data were processed

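RNA of 6 spleens, 3 of NOD.B10 and 3 of BL/10 females, was sequenced in reads of 50 bases. The authors deposited raw, whole-number counts for each gene and library, and the table also holds the exon length of each gene as the authors' value. By its header, reads were counted with featureCounts version 1.5.1 on Ensembl 84 exons (GRCm38), with settings that leave out reads on several places or genes and do not use strand. The paper names Tophat2 as the aligner and the processing notes of the labels name HISAT2 2.0.5. GRCm38 is the genome of C57BL/6J, and how sequence differences of NOD.B10 from it affect mapping was not tested. Libraries were assigned to strains by description and column name, which the titles contradict, and the ages in the labels differ (26 and 36 weeks).

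Symbols came from GENCODE M21 (47224 of 47729 matched). Genes kept by filterByExpr (15330) were compared by TMM and the quasi-likelihood test of edgeR 4.0.16 in R 4.3.3, with BL/10 as reference and Benjamini-Hochberg adjusted p under 0.05 over all of them. Neighbors, acinar genes and edge genes to name were taken by rule (the 10 neighbors with the smallest p, those overlapping a member, the 8 most counted acinar genes, and up to 5 genes outside each limit), and Gm4759, Ear1, Gm4070, Gm8995, Gm1966 and other genes beyond it were named after their values were seen. 1 of the 52 genes is in the totals and is otherwise not reported here. The members and gene lists were chosen with earlier results of these data known. The fit was tested on simulated data. Alternatives were DESeq2 1.42.0, other size factors and filters, a replicate block, other limits and windows, and leaving out each library.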

Additional observations from a re-analysis of the deposited data

How the results depend on the processing

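The number of genes chosen depended on the limits. It was 126 with at least 5 counts in BL/10, 24 with at least 20, 8 with 0 counts allowed in NOD.B10, 19 with at most 1, 93 with at most 5, and 31 when counts were first scaled to the mean library total, which lifts counts of 3 in smaller libraries above the limit and lowers counts of 10 in larger ones below it. Of the 5 steep genes, this scaling kept 2, the limit of 20 counts kept 3, and the limits of 0 and 1 in NOD.B10 kept 0 and 1. Without each library in turn, between 59 and 69 genes were chosen. With the 52 genes kept, classes moved little, with 6 steep genes at a ratio of 3. Genes called between strains numbered between 1269 and 4107 without each library in turn, and neighbors called between 67 and 149. Within 250 kb 65 of 248 neighbors were called (26.2%), and in a window of 1000 kb 215 of 893 (24.1%). Acinar genes outside the 52 called numbered 25 with no filter beyond 1 count and 1 of 4 with at least 10 counts in every library, where fewer genes were tested, and between 0 and 25 without each library in turn, where the cause was not tested. The replicate numbers were not taken to pair the mice. Deviations of same-numbered libraries had correlations of 0.0316, 0.172 and -0.0837, and those of differently numbered libraries lay between -0.184 and 0.158. With so few libraries these values cannot exclude a pairing. With a replicate block, 2889 genes, 124 neighbors and 14 acinar genes were called. RLE size factors, upper-quartile scaling and DESeq2 kept all 3 counts within 1.5 times. Depth limits the chosen genes, as 28 of the 52 had under 20 counts in a BL/10 library, where a difference of a few reads decides membership.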
